A study of Mus musculus with 20 samples.

Results

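The genes examined here are 9 markers and regulators of position along the mouse intestine: the transcription factors *Gata4*, *Gata6*, *Onecut2*, *Cdx1* and *Cdx2*, and the ileal genes *Fabp6*, *Slc10a2*, *Fgf15* and *Cubn*. They were chosen by name, as known regulators of proximal and distal identity and known ileal markers, when earlier results of these data were known. All 9 were found by Ensembl identifier among the 54838 gene rows of the deposited tables. The values were FPKM (fragments mapped to a gene, corrected for transcript length and library depth) in 20 RNA-seq libraries, 12 of sorted crypt cells and 8 of organoids, all from C57BL/6 mice. Tissue cells were gated by flow cytometry as Lgr5-high, the gate for crypt stem cells, or Lgr5-low. WT cells had 2 libraries per gate and were labelled untreated, although the labels' protocols say that *Mettl3*fl/fl mice, named there with no Cre or reporter allele, also received tamoxifen. Knockout cells were labelled *Mettl3*-/-, from *Mettl3*fl/fl mice that carried Lgr5-EGFP-IRES-CreERT2 and Villin-CreERT2 and were injected over 4 days with tamoxifen at 20 mg/ml. The *Villin* promoter drives Cre throughout the intestinal epithelium, so the deletion was not limited to stem cells. Knockout cells had 1 library per gate at day 3, 2 per gate at day 4, and 2 at day 6 whose labels name no gate, while the column header of the first names the low gate. The organoids came from mice with the same 3 alleles and had 2 libraries per group: WT (ethanol for 2 days), KO (4-OHT, the active tamoxifen metabolite, for 2 days), AKF (4-OHT, with *Ascl2*, *Klf9* and *Fosb* from a retrovirus) and AKFP (with *Purb* as a further factor). AKF and AKFP organoids were puromycin-selected, the titles of WT and KO organoids alone carry an unexplained "m3-flag", and no label gives the intestinal segment, the age of the mice or the number of mice or cultures behind the libraries. The p-values thus measure the spread between these libraries, which may be technical.

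*Gata4* is a zinc-finger factor that maintains duodenal and jejunal identity and represses ileal genes in the proximal gut, with *Gata6*, its relative, acting more broadly along the epithelium. *Onecut2* is a cut-homeodomain factor most abundant in the proximal small intestine, whereas the caudal-type homeodomain factors *Cdx1* and *Cdx2* specify intestinal fate and become stronger toward the distal gut. The ileum reclaims bile acids: *Slc10a2* encodes the apical sodium-dependent transporter that takes them up, *Fabp6* the cytosolic protein that binds them, and *Fgf15* the hormone that signals bile acid uptake to the liver. *Cubn* encodes cubilin, the ileal receptor for the vitamin B12 and intrinsic factor complex.

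The libraries held an estimated 14.9 to 25.5 (in units of 1e6) fragments in tissue and 18.1 to 24.6 in organoids, a rough figure read from the steps between values of one-exon genes. Of the tissue libraries, 2 stood apart: summed FPKM was 763177 in day 6 replicate 1 and 607817 in day 4 Lgr5-high replicate 1, against 456653 to 534592 in the other tissue libraries, and antimicrobial defensin and lysozyme genes made up 45.8% and 27.6% of those 2 sums, against 26.9% in day 6 replicate 2 and 15% to 24.4% in the other 9. Markers of intestinal epithelium were high in all libraries, with a summed level of 2930 to 5400 FPKM over 8 genes. Of the immune and stromal markers, *Ptprc* was at most 0.298 FPKM in tissue and listed at 0 in organoids, *Cd74* reached 560 FPKM in tissue, and *Vim* reached 21.7 FPKM. *Mettl3* itself did not separate the genotypes: it was 4.86, 4.58, 4.23 and 3.42 FPKM in the WT tissue libraries, 2.75 to 4.99 FPKM in the knockout ones, 3.23 and 3.56 FPKM in WT organoids and 3.33 to 4.22 FPKM in the other organoids. Gene-level FPKM cannot check the deletion of part of a gene. Of the retroviral factors, *Ascl2* was 12.4 and 12 FPKM in KO, 36.8 and 38.6 in AKF and 19.0 and 19.2 in AKFP organoids, and *Klf9* was 7.79 and 7.90 in KO, 11.1 and 10.7 in AKF and 36.0 and 38.4 in AKFP. *Fosb* was lower in the AKFP libraries (12.4 and 9.77 FPKM) than in KO (38.2 and 25.4), and *Purb* overlapped between AKFP (19.5 and 16.5), AKF (15.9 and 16.8) and KO (14.3 and 17.1), so for these 2 genes the levels do not follow the labels, and AKFP below means the libraries labelled so.

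The first question was whether organoids labelled AKFP differed in region markers from KO organoids and from those labelled AKF. In AKFP minus KO, the factors, the puromycin selection and any difference of culture or intestinal segment cannot be told apart. In AKFP minus AKF, neither can the further factor and any difference of culture or segment. In AKFP organoids, the proximal factors *Gata4* and *Onecut2* were lower and the ileal bile acid genes *Fabp6* and *Slc10a2* higher than in KO organoids, together with a smaller rise of *Cdx1*. *Gata6* and *Cdx2* did not pass the test. No member passed it between AKF and KO organoids.

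*Gata4* (ENSMUSG00000021944; mm10 chromosome 14, 63198922 to 63271692, minus strand) was 50.3 and 53.8 FPKM in WT organoids, 53.8 and 52.0 in KO, 51.7 and 48.5 in AKF and 28.4 and 28.9 in AKFP. The AKFP libraries were the lowest and did not overlap with any of the other 6. The mean was 28.6 ± 0.324 FPKM in AKFP (SD, n = 2) and 52.9 ± 1.31 in KO (SD, n = 2). The difference of log2(FPKM + 1), the scale of all fitted differences below, was -0.86 ± 0.07 (SE; 95% interval -1.02 to -0.70; limma adjusted p = 0.000649). Against AKF organoids the difference was -0.79 ± 0.07 (limma adjusted p = 0.000819). In both, *Gata4* passed the test with any single library left out. KO and WT organoids overlapped in *Gata4*, with a difference of 0.02 ± 0.07 (95% interval -0.14 to 0.18; limma adjusted p = 0.814).

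*Gata6* (ENSMUSG00000005836; chromosome 18, 11052064 to 11085635, plus strand) was 18.4 and 20.0 FPKM in WT, 17.1 and 20.1 in KO, 18.9 and 17.8 in AKF and 17.8 and 19.1 in AKFP organoids. The 4 groups overlapped throughout. The AKFP minus KO difference was -0.01 ± 0.10 (95% interval -0.23 to 0.22; limma adjusted p = 0.955). *Gata6* overlaps 1010001N08Rik on the other strand, and the labels do not say that strand was kept, so its values are uncertain. The ratio of *Gata4* to *Gata6* FPKM within a library was 1.59 and 1.51 in AKFP and between 2.58 and 3.15 in the other 6 organoid libraries.

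*Onecut2* (ENSMUSG00000045991; chromosome 18, 64340020 to 64400987, plus strand) was 6.70 and 8.44 FPKM in WT, 5.73 and 6.35 in KO, 7.35 and 7.64 in AKF and 3.73 and 3.30 in AKFP organoids. Here too the AKFP libraries were the lowest of the 8, with no overlap. The difference was -0.64 ± 0.12 against KO (95% interval -0.91 to -0.37; limma adjusted p = 0.0111) and -0.91 ± 0.12 against AKF (limma adjusted p = 0.00358). The fall against KO missed the threshold without KO replicate 2 (-0.58; limma adjusted p = 0.0561) and without AKFP replicate 2 (-0.57; limma adjusted p = 0.0675), while the fall against AKF passed with any library left out. KO organoids were lower than WT in both libraries, but the difference of -0.28 ± 0.12 did not pass (limma adjusted p = 0.118).

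*Cdx1* (ENSMUSG00000024619; chromosome 18, 61018862 to 61036199, minus strand) was 110 and 112 FPKM in WT, 128 and 136 in KO, 121 and 126 in AKF and 162 and 165 in AKFP organoids. The AKFP libraries were the highest and the WT libraries the lowest, and neither overlapped with another group. The AKFP minus KO difference was 0.31 ± 0.06 (95% interval 0.16 to 0.46; limma adjusted p = 0.0168), or 1.24 times in mean FPKM. It missed the threshold when any 1 of the 4 KO and AKFP libraries was left out: 0.27 without KO replicate 1 (limma adjusted p = 0.111), 0.35 without KO replicate 2 (0.051), 0.32 without AKFP replicate 1 (0.0585) and 0.30 without AKFP replicate 2 (0.0846). Against AKF the difference was 0.41 ± 0.06 (limma adjusted p = 0.00714) and passed in each of these runs.

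*Cdx2* (ENSMUSG00000029646; chromosome 5, 147300805 to 147307270, minus strand), the factor that sets intestinal against gastric fate, stayed between 123 and 136 FPKM in all 8 organoid libraries. Its AKFP minus KO difference was -0.03 ± 0.06 (95% interval -0.17 to 0.12; limma adjusted p = 0.759), an interval that does not reach the difference of *Cdx1*. The ratio of *Cdx1* to *Cdx2* FPKM was 1.24 and 1.29 in AKFP and between 0.859 and 1.02 in the other organoid libraries. The ratio of *Gata4* to *Cdx2* was 0.217 and 0.226 in AKFP against 0.358 to 0.437 elsewhere.

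**Figure D1:**
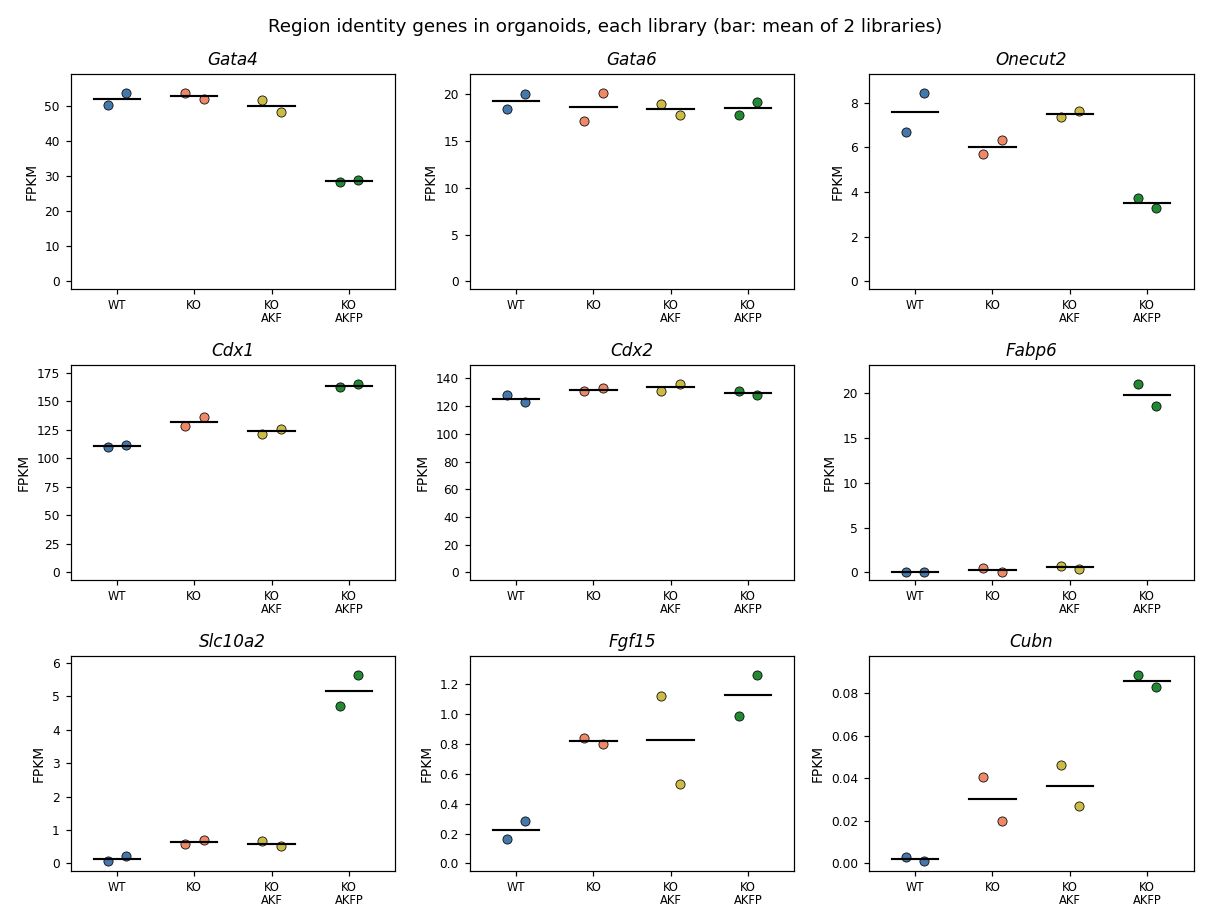
FPKM of the 9 genes (vertical axes, each from 0 on its own linear scale) in the 8 organoid libraries; points are libraries and bars the mean of the 2 libraries of a group. *Gata4* lies at 28.4 and 28.9 in AKFP and above 48 elsewhere, while *Fabp6* lies at 21.0 and 18.6 in AKFP and below 0.8 elsewhere.

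*Fabp6* and *Slc10a2* are both active in ileal enterocytes and showed the largest differences between AKFP and KO organoids among the 8 tested genes, so the DNA upstream of their start sites is shown. Each stretch is from RefSeq (GRCm38.p6, the build of mm10), read 5′ to 3′ on the minus strand, and ends before the start sites of both RefSeq and GENCODE M21. The capitals mark the only match to TTTATG, a form of the site that CDX factors bind, searched on both strands. Fabp6 covers chr11:43601563-43601812 and Slc10a2 covers chr8:5105352-5105537.
Fabp6: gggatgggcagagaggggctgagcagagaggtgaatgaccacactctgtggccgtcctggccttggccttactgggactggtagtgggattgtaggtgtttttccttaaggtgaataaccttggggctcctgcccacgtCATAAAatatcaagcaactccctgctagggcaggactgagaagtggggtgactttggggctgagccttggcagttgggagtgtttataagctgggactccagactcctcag
Slc10a2: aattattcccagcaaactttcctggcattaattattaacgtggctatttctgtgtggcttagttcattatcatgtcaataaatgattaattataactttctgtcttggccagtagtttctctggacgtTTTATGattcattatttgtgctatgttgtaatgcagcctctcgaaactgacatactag
The *Fabp6* match is on the opposite strand at base 140 of 250, and the *Slc10a2* match on the gene's own strand at base 129 of 186. Of 32851 promoter windows in the RefSeq table, 10.8% hold TTTATG in 250 bases and 8.23% in 186 bases. Neither stretch holds AGATAA, a form of the site that GATA factors bind (9.99% and 7.92% of windows), nor AGGTCA, a half-site of nuclear receptors (14% and 10.6% of windows). Other forms of the GATA site were not searched, and both stretches hold GATA itself on the opposite strand. The table matched 4 of the 9 genes; the windows of *Cdx2* (229 bases, upstream part only) and *Cubn* (250 bases) held none of the 3 motifs. No binding was measured here.

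*Fabp6* (ENSMUSG00000020405; chromosome 11, 43596049 to 43601540, minus strand) was listed at 0 in both WT organoid libraries, at 0.460 and 0 FPKM in KO, at 0.754 and 0.435 in AKF and at 21.0 and 18.6 in AKFP. The AKFP libraries were far above the other 6, which reached at most 0.754 FPKM, where 3 fragments of this short transcript give 0.25 to 0.35 FPKM. In estimated fragments, which rest on the rough depth figure and the longest annotated transcript, AKFP had 199 and 183, AKF 9 and 4, and KO 4 and 0. The AKFP minus KO difference was 4.10 ± 0.19 (95% interval 3.64 to 4.56; limma adjusted p = 8.7e-05) and AKFP minus AKF 3.71 ± 0.19 (limma adjusted p = 0.000147). Because the other groups are near 0, these differences depend on the 1 FPKM added, and they are no measure of fold. *Fabp6* entered the organoid test only through the AKFP libraries, so that it had to differ to be tested. With every gene tested, and no filter on level, it was also called against both groups.

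*Slc10a2* (ENSMUSG00000023073; chromosome 8, 5083219 to 5105351, minus strand) was 0.0633 and 0.227 FPKM in WT, 0.581 and 0.712 in KO, 0.669 and 0.513 in AKF and 4.69 and 5.63 in AKFP organoids. The AKFP libraries were highest, KO and AKF overlapped, and WT was lowest with no overlap with the others. The mean was 5.16 ± 0.663 FPKM in AKFP (SD, n = 2) against 0.647 ± 0.0928 in KO (SD, n = 2), 7.98 times as high. The AKFP minus KO difference was 1.90 ± 0.13 (95% interval 1.59 to 2.22; limma adjusted p = 0.000438), and it was called with any library left out for which the gene was tested. Like *Fabp6*, *Slc10a2* passed the filter only through the AKFP libraries, and leaving 1 of them out removed both from the test.

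*Fgf15* (ENSMUSG00000031073; chromosome 7, 144896531 to 144900953, plus strand) was 0.165 and 0.283 FPKM in WT, 0.838 and 0.801 in KO, 1.12 and 0.532 in AKF and 0.988 and 1.26 in AKFP organoids. WT was lowest with no overlap, while the 3 groups labelled *Mettl3*-/- lay close together. The AKFP minus KO difference was 0.22 ± 0.17 (95% interval -0.19 to 0.63; limma adjusted p = 0.362). *Fgf15* reached the filter through 1 AKF and 1 AKFP library, and overlaps the antisense genes Gm26793 and Gm39119, so its values are uncertain. *Cubn* (ENSMUSG00000026726; chromosome 2, 13276338 to 13491813, minus strand), which overlaps Gm13270, was not tested in organoids: it was 0.00305 and 0.00131 FPKM in WT, 0.0407 and 0.0198 in KO, 0.0463 and 0.0268 in AKF and 0.0885 and 0.0830 in AKFP. The AKFP libraries were the highest of the 8, at levels far below those of the other ileal genes.

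Of the 9 genes, 8 were tested in organoids. In AKFP minus KO, 5 were called, 3 higher and 2 lower, where 26.4% of the 12657 genes tested were called. In AKFP minus AKF the same 5 were called, against 25.6% of all genes, and in AKF minus KO 0 were called, against 0.0474% (6 genes; 582 genes had an unadjusted p under 0.05). The first 2 comparisons share the AKFP libraries and are not independent. The counts include *Fabp6* and *Slc10a2*, whose test depended on their AKFP level.

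**Figure D2:**
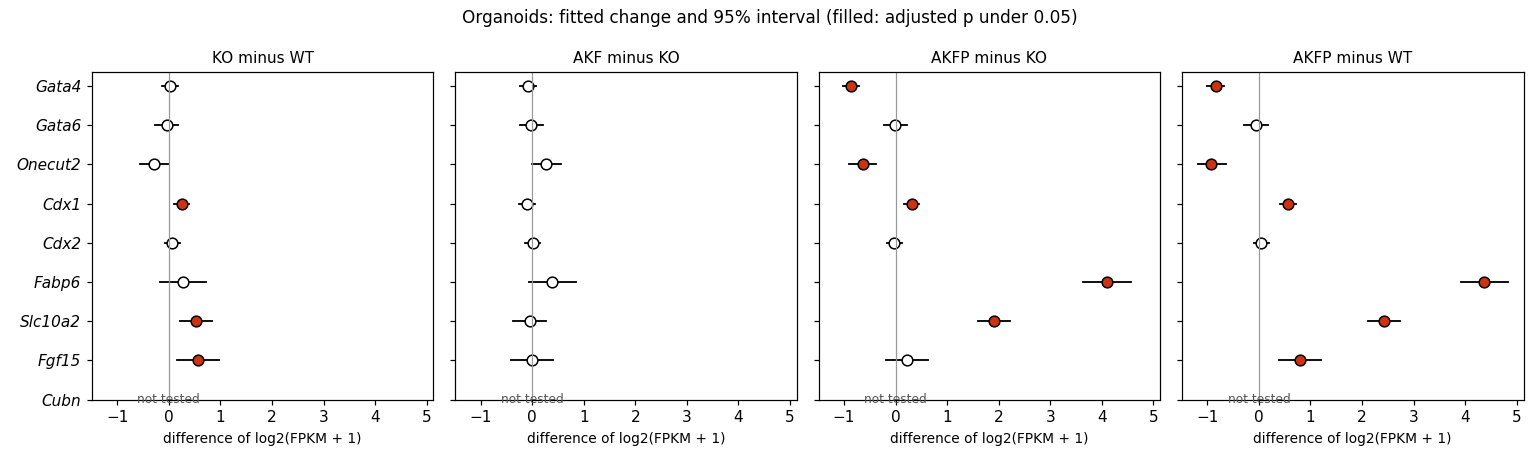
Fitted differences of log2(FPKM + 1) in organoids (points) with 95% intervals (lines) for KO minus WT, AKF minus KO, AKFP minus KO and AKFP minus WT; filled points have an adjusted p under 0.05. AKFP minus KO runs from -0.86 for *Gata4* to 4.10 for *Fabp6*, no gene is filled in AKF minus KO, and *Cubn* was not tested.

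KO organoids were compared with WT organoids for the effect of the deletion itself, in which the genotype and the 4-OHT treatment cannot be told apart. *Slc10a2*, *Cdx1* and *Fgf15* were higher in KO, and the GATA factors and *Cdx2* did not pass. *Slc10a2* differed by 0.53 ± 0.13 (limma adjusted p = 0.0265), *Cdx1* by 0.25 ± 0.06 (limma adjusted p = 0.0286) and *Fgf15* by 0.57 ± 0.17 (limma adjusted p = 0.0472). These are 3 of 8 members called, at 28.2% of all genes tested, and *Slc10a2* and *Fgf15* entered the test only through AKF or AKFP libraries. All 3 calls were lost when any 1 of the 4 WT and KO libraries was left out, with differences of 0.42 to 0.63 for *Slc10a2* (limma adjusted p 0.0515 to 0.126), 0.21 to 0.29 for *Cdx1* (0.0757 to 0.161) and 0.50 to 0.64 for *Fgf15* (0.11 to 0.179). *Fgf15* also missed the threshold without AKFP replicate 1 (limma adjusted p = 0.0658).

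Against WT organoids, AKFP organoids had 6 of 8 members called, where 43.4% of all genes were: *Fabp6*, *Slc10a2*, *Cdx1* and *Fgf15* were higher and *Gata4* and *Onecut2* lower. Of these, *Fabp6* and *Slc10a2* passed the filter only through AKFP libraries and *Fgf15* through 1 AKF and 1 AKFP library, so the count is not read against that share. *Slc10a2* differed by 2.43 ± 0.13 (limma adjusted p = 9.41e-05), *Cdx1* by 0.56 ± 0.06 (limma adjusted p = 0.000852) and *Onecut2* by -0.92 ± 0.12 (limma adjusted p = 0.00124). *Fgf15* differed by 0.80 ± 0.17 (limma adjusted p = 0.0103) and missed the threshold without WT replicate 1 (0.72; limma adjusted p = 0.0605). AKF organoids had 3 of 8 called against WT, at 30.3% of all genes: *Fabp6* (0.67 ± 0.19; limma adjusted p = 0.0396), *Slc10a2* (0.48 ± 0.13; 0.0348) and *Fgf15* (0.56 ± 0.17; 0.0482), all higher, with the same limit of the filter. The *Fabp6* call was lost without either WT or either AKF library (limma adjusted p of up to 0.159), the *Slc10a2* call without any 1 of the WT, KO or AKF libraries (up to 0.159), and the *Fgf15* call without any 1 of the WT or KO libraries or AKFP replicate 1 (up to 0.183). The *Fabp6* value in AKF rests on 9 and 4 estimated fragments.

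Other genes of proximal and ileal identity were read from lists. Of 15 proximal genes, 13 were tested in AKFP minus KO organoids, with a median difference of -0.44, against 0.04 over all genes tested. Of these 13, 6 fell and 0 rose, where 26.4% of all genes tested were called. Apart from *Gata4* and *Onecut2*, these were *Cybrd1*, a duodenal ferric reductase (5.18 and 5.66 FPKM in KO, 0.556 and 0.661 in AKFP), *Fabp1*, a fatty acid binding protein (670 and 640 in KO, 247 and 193 in AKFP), *Creb3l3*, a membrane-bound factor of lipid metabolism (14.4 and 17.0 in KO, 6.05 and 7.63 in AKFP), and *Npc1l1*, the cholesterol transporter. None of these overlapped between the 2 groups. The differences were -2.0 ± 0.18 for *Cybrd1* (limma adjusted p = 0.000987), -1.58 ± 0.23 for *Fabp1* (0.00546), -1.09 ± 0.18 for *Creb3l3* (0.00862) and -0.44 for *Npc1l1* (0.043), and the first 3 were called in every alternative, whereas *Npc1l1* was called in 6 of 17 (limma adjusted p of up to 0.159). With 1 library left out, 4 to 6 proximal genes fell and 0 rose. *Fabp1*, *Creb3l3* and *Npc1l1* had already fallen in KO minus WT organoids, by 1.26, 1.09 and 0.68, along with *Apoa4* and *S100g*. *Cybrd1* had not passed there. In that comparison 5 of 13 proximal genes were lower and 0 higher, where 28.2% of all genes tested were called. That count was 3 to 6 as single libraries were left out, and *Npc1l1* missed the threshold without WT replicate 2 (limma adjusted p = 0.0546).

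Of 10 ileal genes, 9 were tested in AKFP minus KO organoids, with a median of 0.22. Of these 9, 4 rose and 1 fell, where 26.4% of all genes tested were called. Beside *Fabp6* and *Slc10a2*, the genes that rose were *Slc51b*, the beta subunit of the basolateral bile acid exporter (1.90 and 2.96 FPKM in KO, 5.35 and 5.07 in AKFP; difference 0.88 ± 0.19, limma adjusted p = 0.0189), and *Osr2*, an odd-skipped zinc-finger factor (6.59 and 7.99 in KO, 13.4 and 10.3 in AKFP; 0.62 ± 0.14, 0.0227). Neither overlapped, and both calls were lost without KO replicate 1 or AKFP replicate 1 (limma adjusted p of up to 0.0946 and 0.125), *Slc51b* also without AKFP replicate 2. *Slc51a*, the alpha subunit of the exporter, was 3.08 and 4.06 FPKM in KO and 3.16 and 3.82 in AKFP and did not pass. *Nr0b2*, the repressor induced by the bile acid receptor, fell (1.26 and 1.2 in KO, 0.392 and 0.213 in AKFP; -0.78, limma adjusted p = 0.00913), and this call was lost without KO replicate 1 or AKFP replicate 2 (limma adjusted p of up to 0.0586). The ileal list and the members share genes, and the count of called ileal genes ran from 0 to 4 higher as single libraries were left out, partly because *Fabp6* and *Slc10a2* then left the test.

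**Figure D3:**
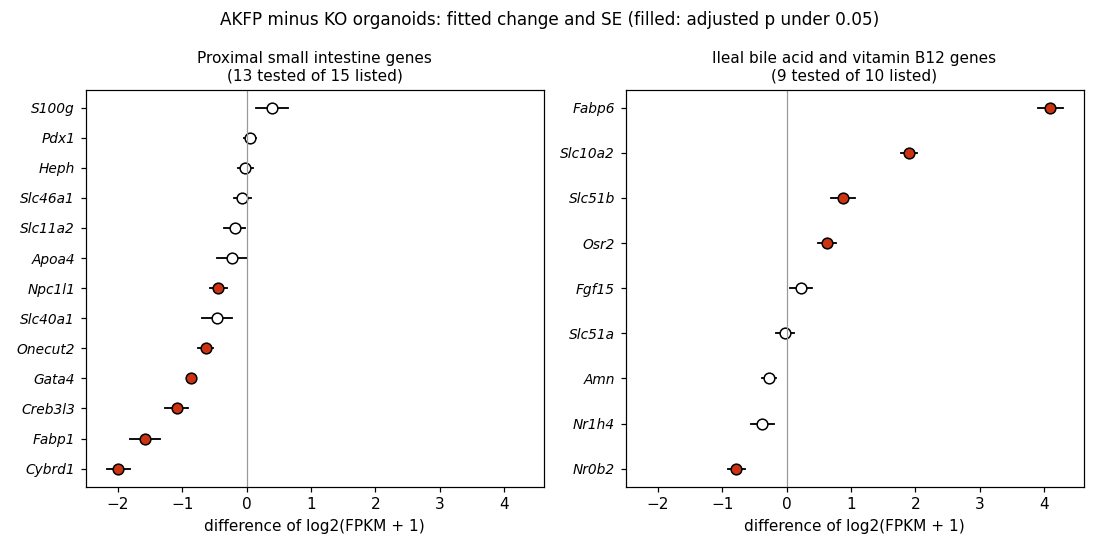
AKFP minus KO difference of log2(FPKM + 1) with its SE for the tested proximal genes (left) and ileal genes (right); filled points have an adjusted p under 0.05. The called proximal genes lie between -2.0 (*Cybrd1*) and -0.44 (*Npc1l1*), and the called ileal genes include *Fabp6* at 4.10 and *Nr0b2* at -0.78.

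Markers of cell types and the other lists were read in the same way. Of 12 enterocyte markers, 5 fell and 0 rose in AKFP minus KO organoids (median -0.69), or 2 to 7 as single libraries were left out, and their summed level was 583 to 680 FPKM in AKFP, 963 to 1040 in KO, 828 to 1290 in AKF and 1380 to 1500 in WT. In bulk libraries, fewer cells of a type and less RNA per cell cannot be told apart, and the part of a change in enterocytes in the fall of *Fabp1*, *Creb3l3* and *Cybrd1* was not tested. Of 6 Paneth cell markers 4 rose, and of 6 enteroendocrine markers 6 fell. Among the colon genes, the water channel *Aqp4* rose (33.2 and 33.8 FPKM in KO, 50.2 and 50.3 in AKFP; 0.57, limma adjusted p = 0.00777), and this call was lost without KO replicate 1 (limma adjusted p = 0.0514). The only paralogue of the regulators that was tested, *Gata5*, rose (7.62 and 7.88 FPKM in KO, 11.6 and 11.9 in AKFP; 0.54 ± 0.08, limma adjusted p = 0.00602), the opposite direction to *Gata4*. Of 15 partner factors 13 were tested and 3 rose, led by the pioneer factor *Foxa1* (22.8 and 25.5 FPKM in KO, 45.7 and 49.6 in AKFP; 0.95, limma adjusted p = 0.00202), which had also risen in KO minus WT organoids. The counts of this paragraph stand beside 26.4% of all genes tested that were called in AKFP minus KO. Calls in the remaining lists are given next. Of 9 tested genes of bile acid handling, 1 rose (*Slc51b*) and 2 fell (*Nr0b2* and the exporter *Abcc3*, by 0.51 on the log2 scale), and of 5 tested genes of vitamin B12 handling 1 rose (*Mmachc*, 0.51 ± 0.11). Of 2 tested stomach genes the proton pump subunit *Atp4a* fell (-0.59 ± 0.12). Of 6 stem cell markers 2 rose, led by *Olfm4* (1.19 ± 0.13). That list includes *Ascl2*, a factor of the retrovirus given to AKFP organoids. Its level there cannot be read as a stem cell marker, so the count of that list is not interpreted. Of 6 goblet cell markers 1 rose and 1 fell, and of 2 tested tuft cell markers 0 were called. Of the immune and stromal markers *Vim* alone was tested and fell.

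In tissue the order of the genes differed from that in organoids. *Fabp6* was the highest of the 9 in every Lgr5-low library, and *Cdx1* exceeded *Cdx2* in all 12 libraries, with a ratio of 1.34 to 2.02, while in organoids it exceeded *Cdx2* in AKFP and in KO replicate 2. The tissue and organoid values come from separate tables, and these levels were not tested against each other.

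The first tissue comparison was between the 2 gates in WT mice. Of the 8 tested members, *Fabp6* was lower in Lgr5-high cells and the other 7 did not pass the test. *Fabp6* was 43.7 and 45.0 FPKM in WT Lgr5-high and 347 and 495 in WT Lgr5-low cells, a mean 9.49 times as high in the low gate, with no overlap. The difference was -3.20 ± 0.46 (95% interval -4.25 to -2.14; limma adjusted p = 0.0208). It was 1 of 8 members called, against 1.2% of the 12899 genes tested. The call was lost when any 1 of the 4 WT libraries was left out, with differences of -3.45 to -2.94 and limma adjusted p of 0.0975 to 0.194.

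*Slc10a2* was 0.236 and 0.140 FPKM in WT Lgr5-high and 2.39 and 1.09 in WT Lgr5-low cells, *Cubn* 0.046 and 0.106 against 0.564 and 2.34. Both were lower in every Lgr5-high library and neither passed (-1.16 ± 0.36, limma adjusted p = 0.189, and -1.09 ± 0.37, 0.228). *Fgf15* was 0.0771 and 0.0592 against 0.698 and 0.819 FPKM, and was not tested in tissue because it stayed below the filter. In the same comparison 1.2% of all genes tested were called. Of the lists, 3 of 9 ileal genes, 4 of 14 proximal genes and 4 of 12 enterocyte markers were lower and 0 were higher. These counts ran from 0 to 3, 0 to 5 and 0 to 7 as single libraries were left out. The summed enterocyte markers were 397 to 413 FPKM in the high gate and 1940 to 3160 in the low gate, so all 4 ileal genes were higher in the libraries with more enterocyte RNA. Their part in the gate difference was not tested.

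**Figure D4:**
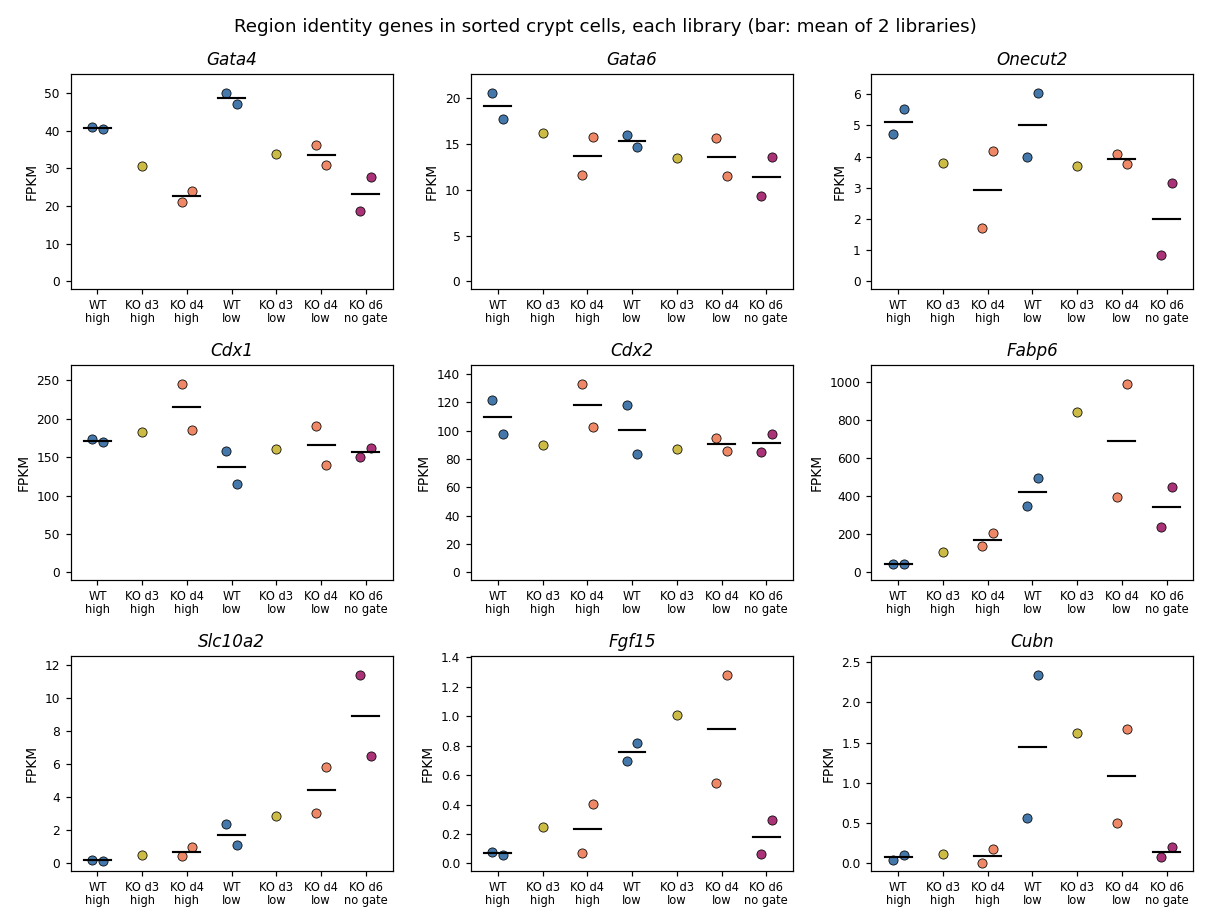
FPKM of the 9 genes (vertical axes, each from 0 on its own linear scale) in the 12 tissue libraries; points are libraries and bars the mean of 2 libraries, and the day 3 groups have 1 library each. *Slc10a2* is highest in the day 6 libraries (11.4 and 6.50), and *Gata4* is below all 4 WT libraries in every knockout library.

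*Gata4* was 41.0 and 40.5 FPKM in WT Lgr5-high cells and 50.0 and 47.2 in WT Lgr5-low cells. In knockout cells it was 30.7 (high) and 33.7 (low) at day 3, 21.2 and 24.1 (high) and 36.3 and 30.8 (low) at day 4, and 18.6 and 27.6 at day 6. Every knockout library lay below every WT library. The day 4 differences did not pass, at -0.83 ± 0.22 in the high gate (95% interval -1.32 to -0.33; limma adjusted p = 0.112) and -0.53 ± 0.22 in the low gate (-1.02 to -0.03; 0.335), and the 2 effects did not differ by their own test (-0.30 ± 0.31; limma adjusted p = 0.963). At day 6 *Gata4* fell, by 0.82 ± 0.22 on the log2 scale against WT Lgr5-high (limma adjusted p = 0.0288) and by 1.07 ± 0.22 against WT Lgr5-low cells (limma adjusted p = 0.0162).

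Both *Gata4* calls at day 6 depended on single libraries. Without day 6 replicate 1, the library of highest summed FPKM, the difference was -0.55 against WT Lgr5-high (limma adjusted p = 0.181) and -0.79 against WT Lgr5-low cells (limma adjusted p = 0.11). The call against WT Lgr5-high was also lost without WT Lgr5-high replicate 1 (-0.81; 0.133) or 2 (-0.83; 0.152) and without WT Lgr5-low replicate 1 (-0.82; 0.0548) or 2 (-0.82; 0.0544). That against WT Lgr5-low was lost without WT Lgr5-low replicate 1 (-1.03; 0.11) or 2 (-1.11; 0.11). With a WT library left out, both differences thus stayed near those of all libraries, while without day 6 replicate 1 they were smaller. With all libraries scaled to the same summed FPKM, the differences were larger (-1.19 and -1.34) and missed the threshold (limma adjusted p = 0.0541 and 0.0657).

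*Onecut2* did not pass: it was 4.72, 5.53, 3.99 and 6.04 FPKM in the WT libraries and 0.856 and 3.15 at day 6, which lay below all 4, with differences of -1.14 ± 0.42 against the high gate (limma adjusted p = 0.0818) and -1.10 ± 0.42 against the low gate (0.13). *Gata6* was 20.5 and 17.7 in WT Lgr5-high, 15.9 and 14.6 in WT Lgr5-low and 9.31 and 13.5 FPKM at day 6, also below all 4 WT libraries, and did not pass either (-0.72 ± 0.25 against the high gate; limma adjusted p = 0.0684). The *Gata4* to *Gata6* ratio was 2.00 and 2.28 in WT Lgr5-high, 3.14 and 3.24 in WT Lgr5-low and 2.00 and 2.05 at day 6. Of *Gata4*, *Onecut2* and *Gata6*, *Gata4* alone passed at day 6. The share of all genes that lay below all 4 WT libraries at day 6 was not counted, so that separation is not interpreted. The median difference of all 12899 genes tested was also negative at day 6, at -0.162 against WT Lgr5-high and -0.079 against WT Lgr5-low cells.

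*Cdx1* ranged from 115 to 245 FPKM and *Cdx2* from 83.7 to 133 FPKM over the 12 tissue libraries. *Cdx1* was 173 and 170 in WT Lgr5-high, 245 and 185 in day 4 Lgr5-high and 150 and 162 at day 6, and *Cdx2* was 122 and 97.8, 133 and 103, and 85.2 and 97.4 in the same groups. No comparison of either gene passed. The 95% intervals of *Cdx2* between knockout and WT cells ran from -0.81 at the lowest (day 6 minus WT Lgr5-high) to 0.64 at the highest (day 4 minus WT in the high gate).

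*Slc10a2* was highest at day 6, at 11.4 and 6.50 FPKM, against 0.236 and 0.140 in WT Lgr5-high and 2.39 and 1.09 in WT Lgr5-low cells. In knockout cells it was 0.528 (high) and 2.90 (low) at day 3, and 0.453 and 0.990 (high) and 3.06 and 5.81 (low) at day 4. The day 6 libraries lay above all other tissue libraries. Against WT Lgr5-high the difference was 3.02 ± 0.36 (95% interval 2.20 to 3.85, limma adjusted p = 0.00168) and was called in every alternative. The mean was 47.6 times as high, but from an estimated 25 and 10 fragments in the WT Lgr5-high libraries. Between the WT gates alone, the mean was 9.26 times as high in Lgr5-low cells. Because the day 6 labels name no gate, gate and knockout cannot be told apart in the comparison with WT Lgr5-high. Against WT Lgr5-low the difference was 1.86 ± 0.36 (95% interval 1.03 to 2.68, limma adjusted p = 0.0145), a mean 5.14 times as high. Against day 4 Lgr5-high it was 2.50 ± 0.36 (limma adjusted p = 0.0203), with day 6 minus day 4 Lgr5-low at 0.87 ± 0.36 (limma adjusted p = 0.559).

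The comparison with WT Lgr5-low was lost without WT Lgr5-low replicate 2 (1.51; limma adjusted p = 0.131) and without day 6 replicate 1 (1.49; 0.104). The comparison with day 4 Lgr5-high was lost without day 4 Lgr5-high replicate 1 (2.28; 0.0921) and without day 6 replicate 1 (2.14; 0.132). At day 4 itself *Slc10a2* did not pass in either gate (0.52 ± 0.36 in the high gate, limma adjusted p = 0.504, and 0.98 ± 0.36 in the low gate, 0.286).

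*Fabp6* was 106 (high) and 840 FPKM (low) at day 3, 137 and 208 (high) and 395 and 989 (low) at day 4, and 238 and 447 at day 6. All knockout Lgr5-high libraries lay above the WT Lgr5-high values of 43.7 and 45.0, and the knockout Lgr5-low libraries overlapped or exceeded the WT range of 347 to 495. At day 4 the difference was 1.91 ± 0.46 in the high gate (95% interval 0.85 to 2.96; limma adjusted p = 0.0959) and 0.59 ± 0.46 in the low gate (limma adjusted p = 0.642), and neither passed. Day 6 cells differed from WT Lgr5-high by 2.85 ± 0.46 (limma adjusted p = 0.00478), called in every alternative, and from WT Lgr5-low by -0.34 ± 0.46 (95% interval -1.40 to 0.71, limma adjusted p = 0.691). As for *Slc10a2*, gate and knockout cannot be told apart in the comparison with WT Lgr5-high.

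Among the ileal members, *Slc10a2* alone had its highest tissue values at day 6. *Cubn* was 0.0831 and 0.203 FPKM at day 6, near the WT Lgr5-high libraries and below both WT Lgr5-low libraries, and did not pass (-1.0 ± 0.37 against WT Lgr5-low; limma adjusted p = 0.121). *Fgf15* was 0.0656 and 0.298 FPKM at day 6, against 0.698 and 0.819 in WT Lgr5-low cells, and was not tested. At day 4 it was 0.071 and 0.402 in the high gate and 0.545 and 1.28 in the low gate, and *Cubn* was 0.00837 and 0.183 in the high gate and 0.500 and 1.67 in the low gate. At day 3 *Fgf15* was 0.249 (high) and 1.01 (low) and *Cubn* 0.123 (high) and 1.62 (low). Both genes were thus lower in each knockout Lgr5-high library than in the Lgr5-low libraries of the same day, as in WT cells.

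Of the 8 members tested in tissue, 0 were called at day 4 in the high gate (1.05% of all genes were), 0 in the low gate (0.473%), 0 between the gates of day 4 knockout cells (0%; 2417 genes had an unadjusted p under 0.05) and 0 for the difference of the 2 day 4 effects (0.0155%). At day 6, 3 were called against WT Lgr5-high (*Fabp6* and *Slc10a2* higher, *Gata4* lower; 21.9% of all genes), 2 against WT Lgr5-low (*Slc10a2* higher, *Gata4* lower; 11.5%), 1 against day 4 Lgr5-high (*Slc10a2*; 3.21%) and 0 against day 4 Lgr5-low (0.0543%). Comparisons with the day 6 libraries share those libraries.

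**Figure D5:**
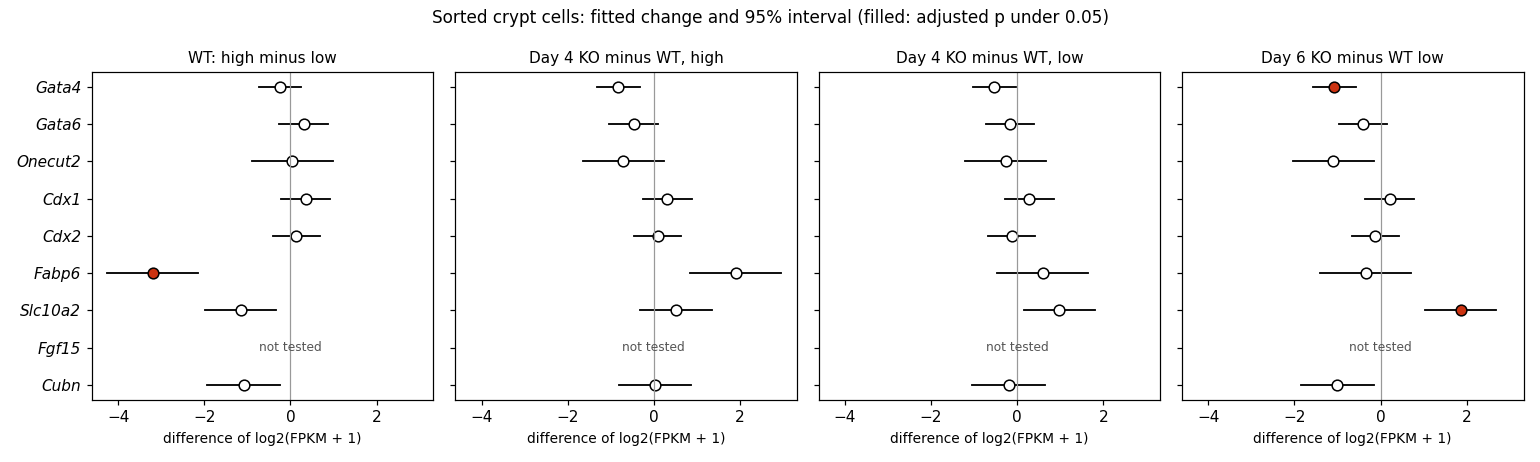
Fitted differences of log2(FPKM + 1) in tissue (points) with 95% intervals (lines) for the WT gates, for day 4 knockout minus WT in each gate and for day 6 knockout minus WT Lgr5-low; filled points have an adjusted p under 0.05. *Fabp6* is filled between the WT gates (-3.20), *Gata4* (-1.07) and *Slc10a2* (1.86) at day 6, and *Fgf15* was not tested.

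The gate of the day 6 cells bears on which WT cells they are set against. *Lgr5* was 10.1 and 10.4 FPKM in WT Lgr5-high, 0.715 and 0.974 in WT Lgr5-low and 0.340 and 1.27 in the day 6 libraries, and the summed enterocyte markers were 2590 to 2880 FPKM at day 6, within the WT Lgr5-low range. Against WT Lgr5-high, 7 of 12 enterocyte markers rose and 0 fell at day 6 (2 to 9 as single libraries were left out), along with 5 of 9 ileal genes (*Slc10a2*, *Slc51b*, *Slc51a*, *Fabp6* and *Nr1h4*, the bile acid receptor) and 5 of 14 proximal genes, led by *Creb3l3* (2.80) and *Apoa4* (5.43), while 1 proximal gene, *Gata4*, fell. With single libraries left out, 4 to 5 ileal genes rose and 0 fell, and 3 to 7 proximal genes rose and 0 to 2 fell. Of all genes tested, 21.9% were called against WT Lgr5-high and 11.5% against WT Lgr5-low cells. Against WT Lgr5-low, 0 enterocyte markers were called, and of the ileal genes *Slc10a2* rose and *Amn*, the membrane partner of cubilin, fell (-1.24; 31.8 and 24.8 FPKM in WT Lgr5-low, 10.6 and 12 at day 6). Of the proximal genes *Gata4* alone was called against WT Lgr5-low. The *Amn* call was kept in 13 of 20 alternatives and lost without any 1 of the WT or day 6 libraries (limma adjusted p of up to 0.169). *Vdr*, the vitamin D receptor, fell in both day 6 comparisons (-3.15 and -2.55).

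Stomach genes were uneven between the 2 day 6 libraries. The summed level of 11 stomach genes was 100 FPKM in replicate 1 and 7.22 in replicate 2, against 2.49 to 26.4 in the other tissue libraries. *Tff2*, a trefoil peptide of gastric mucus, was 60.7 and 2.27 FPKM at day 6 and at most 16.1 elsewhere in tissue, and *Gkn2*, a gastric mucosal protein, was 8.06 and 1.49 and at most 3.42 elsewhere. Of 5 stomach genes tested, limma called 0 in either comparison of day 6 with WT cells, and 1 in each had an unadjusted p under 0.05. Against WT Lgr5-high, *Tff2* differed by 3.08 ± 1.42 (limma adjusted p = 0.151) and *Gkn2* by 2.06 ± 0.77 (limma adjusted p = 0.0882). *Sox2*, *Barx1* and *Atp4b* were listed at 0 in both day 6 libraries. Leaving out day 6 replicate 1 was among the alternatives that ended the *Gata4* calls and the *Slc10a2* calls against WT Lgr5-low and day 4 Lgr5-high, and the part of the stomach genes in those results was not tested.

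The genes whose profiles were most like those of the members were found by Pearson correlation of log2(FPKM + 1), as a description. Over the 8 organoid libraries, among 6970 genes with a mean of at least 5 FPKM, these were *Adamtsl5* (0.992) and *Btnl2* (0.992) for *Gata4*, *Ppp1r12a* (0.988) and *Ptpn6* (0.976) for *Onecut2*, *Odc1* (0.997) and *Prpf31* (0.992) for *Cdx1*, and *Got2* (0.993) and *Tm9sf1* (0.993) for *Slc10a2*. For *Fabp6* they were the Paneth cell defensins *Defa21* (0.995) and *Defa20* (0.991), which are close copies of other defensins and uncertain. Over the 12 tissue libraries, among 6577 genes, they were *Etfdh* (0.981) and *Wdtc1* (0.977) for *Gata4*, *Deptor* (0.981) and *Mbd6* (0.972) for *Onecut2*, *Zg16* (0.975) and *Cndp2* (0.951) for *Fabp6*, and *Acot9* (0.987) and *Chmp2b* (0.966) for *Slc10a2*. Among the members themselves, *Fabp6* and *Slc10a2* had r = 0.978, *Gata4* and *Fabp6* r = -0.982 and *Gata4* and *Onecut2* r = 0.911 in organoids. In tissue the same pairs had r = 0.695, -0.022 and 0.827. The points of a set share groups, so these values mostly restate the differences between groups.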

How the data were processed

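Per the file headers, the deposited tissue files hold FPKM per gene, and the deposited organoid table, whose header names no unit, was taken as FPKM because its rows, number format and range match. The tools HISAT2 2.1.0 and StringTie 1.3.3b, and mm10 as the build, are named in the submitters' processing notes. Whether strand was kept is not given in the sources used here. Identifiers were matched to GENCODE M21 (54723 of 54838 rows had a symbol).

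Values were analysed as log2(FPKM + 1), which understates changes of low genes. Genes entered a test if 2 or more libraries of that fit had at least 1 FPKM. limma 3.58.1 in R 4.3.3 (lmFit, and eBayes with a trend) was fitted with 1 mean per group to 10 tissue and, separately, 8 organoid libraries, with two-sided tests, Benjamini-Hochberg adjustment over all genes tested and a threshold of 0.05, for 15 comparisons. The day 3 groups have 1 library each and were not tested. The procedure was tested on simulated data. Alternatives changed the added FPKM, filter, scaling, libraries and spread estimate, or added the replicate number as a block. No label says that the numbers pair libraries, and they were not treated as pairs: differences between replicates 1 and 2 correlated across genes by 0.024 to 0.52 between tissue groups and by -0.039 to 0.091 between organoid groups.

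The members, gene lists and tests were chosen with earlier results of these data known. The rule was to name the members, *Mettl3* and *Lgr5*, and from each list genes past the threshold (at most 6 by smallest p, otherwise at most 2). It also covered, for each member with enough FPKM, the 2 most correlated genes of a set. Not every gene under the rule is given. Among those left out are the correlated genes of *Gata6*, *Cdx2* and *Fgf15* in both sets and of *Cdx1* and *Cubn* in tissue. *Klf9*, *Fosb*, *Purb*, *Slc51a*, *Ptprc*, *Cd74*, *Vim*, *Tff2*, *Gkn2*, *Sox2*, *Barx1* and *Atp4b* are named outside that rule, after their values were seen. The lists held 10 ileal, 15 proximal, 12 colon, 11 stomach, 7 paralogue, 15 partner, 13 bile acid and 7 vitamin B12 genes, and markers of 9 cell classes. The result of 1 colon gene is not reported here.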

Additional observations from a re-analysis of the deposited data

How the results depend on the processing

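Of 29 called member changes, 476 alternative runs kept the call in 398, lost it in 78 and reversed it in 0; of 1686 runs of the 91 uncalled changes, 19 gained a call, and 86 runs changed the sign of a value called in neither fit. In AKFP minus KO, *Gata4* kept its call in all 17 runs. *Fabp6* and *Slc10a2* kept theirs in the 15 and 14 runs that tested them. None of those runs left out an AKFP library, because both genes passed the filter only through the AKFP libraries. In day 6 minus WT Lgr5-high cells, where gate and knockout cannot be told apart, *Fabp6* and *Slc10a2* kept their call in all 20 runs. In the counts of members called, dropping the filter gave 0 (from 1) between the WT gates, 1 (from 2) for day 6 minus WT Lgr5-low, 0 (from 1) for day 6 minus day 4 Lgr5-high, 1 (from 3) for KO minus WT and 0 (from 3) for AKF minus WT organoids. A filter of 5 FPKM gave 1 for KO minus WT and 0 for AKF minus WT. Equal FPKM sums gave 1 for day 6 minus WT Lgr5-low and 1 for KO minus WT. Quantile normalization gave 1 (from 0) for day 4 in the high gate, 5 (from 3) for day 6 minus WT Lgr5-high and 1 for AKF minus WT. Fitting only the compared groups gave 0 for day 6 minus day 4 Lgr5-high, 1 for KO minus WT and 0 for AKF minus WT. Leaving out the 2 libraries of highest summed FPKM, chosen after seeing the data, gave 1 for day 6 minus WT Lgr5-low and 0 for day 6 minus day 4 Lgr5-high. The replicate number as a block, which no label gives as a pairing, gave 1 (from 0) for day 4 in the high gate, 1 (from 0) between the day 4 gates and 4 (from 2) for day 6 minus WT Lgr5-low; it added calls of *Fabp6* in the first 2 (limma adjusted p = 0.022 and 0.0248), *Onecut2* in both day 6 comparisons with WT cells (0.0281 and 0.0478) and *Cubn* in day 6 minus WT Lgr5-low (0.0434), and lost *Fgf15* in KO and AKF minus WT organoids (0.0677 and 0.0687). With single libraries left out, where a lone library is assumed to vary like the other groups, the counts ran from 0 to 1 between the WT gates, 0 to 2 between the day 4 gates, 2 to 5 and 0 to 3 for day 6 minus WT Lgr5-high and WT Lgr5-low, 0 to 1 for day 6 minus day 4 Lgr5-high, 0 to 3 for KO minus WT, 1 to 5 for AKFP minus KO, 3 to 5 for AKFP minus AKF, 0 to 1 for AKF minus WT and 3 to 6 for AKFP minus WT. The number of libraries or of genes tested also differed between these runs, and its part in the changed counts was not tested. Equal FPKM sums moved the median of all genes from -0.16 to -0.46 in day 6 minus WT Lgr5-high, from -0.08 to -0.29 in day 6 minus WT Lgr5-low and from 0.04 to 0.15 in AKFP minus KO, and the share of calls that were higher in AKFP minus KO from 49.9% to 69.4%; relative to those medians *Gata4* stayed lower. Depth limits *Fabp6* in organoids other than AKFP, and *Fgf15* and *Cubn* throughout.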
